A study of Mus musculus with 6 samples.

Results

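Regions of open chromatin found only in the WT pro-B cell line were examined. They were chosen by the presence of an ATAC-seq peak in each WT list and its absence from all 4 lists of the lines CBE_1 and CBE_2, whose IgH alleles carry a mutated IGCR1. Peaks of the 6 deposited lists that overlapped by at least 1 bp were merged into 149724 regions. Of these, 13003 (8.68%) met the rule and are called WT-only regions here. Presence and absence of a peak chose them, so their number, height and width are descriptions, and no test was made between the lines on them. Positions are 1-based coordinates of the mouse build mm9.

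All lines are RAG2-deficient pro-B cells from bone marrow of strain 129SV, kept in culture without treatment. They therefore lack a subunit of the recombinase that assembles antigen receptor genes. CBE_1 and CBE_2 have the genotype IGCR1-/-, and WT has wild-type IgH alleles. For every line 2 libraries were made, from 200000 cells and with 11 PCR cycles. Since only 1 WT line was used, the genotype cannot be told apart from the line. The labels do not state if duplicates are separate cultures or if a line is 1 clone, and the spread between duplicates may be technical.

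In ATAC-seq the Tn5 transposase inserts sequencing adapters where DNA is free of packed nucleosomes, so peaks mark promoters, enhancers, insulators and other sites that bind regulatory proteins. Promoters are usually open in many cell types, whereas distal enhancers differ more between cell types and often lie in groups around the genes they act on. IGCR1 lies in the IgH locus between VH and D segments, holds sites for the insulator protein CTCF and keeps the intronic enhancer of the locus from acting on the nearest VH segments.

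The CBE_1 lists held 72318 and 80242 peaks, the CBE_2 lists 94665 and 97522, and the WT lists 112241 and 106056. The WT lists were thus the longest, and their read depth is unknown. With only the best 72318 peaks of each list, 6445 regions met the rule. Of the 13003 WT-only regions, 4698 (36.1%) had their peaks among the best 72318 of both WT lists.

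The strongest WT-only regions ranked among the highest peaks of the WT lists. Ranks are percentiles of −log10 p within a list, where 100 is the strongest peak, and the lower of both WT percentiles was used for a region. The region on chromosome 9 at 29423644 to 29425317 had no peak in the 4 mutated lists, against folds over background of 22.4 and 22.7 in WT. The fold is the authors' value for a peak. The region on chromosome 10 at 126109401 to 126111588 had no mutated peak, against folds of 23.3 and 22.3 in WT. On chromosome 2, 173546809 to 173548983 had WT folds of 20.8 and 21.2. With chromosome 10 at 127682593 to 127684868 (20.1 and 20.2) and chromosome 2 at 114621692 to 114623893 (19.8 and 20.1), these were the 5 WT-only regions above the 95th percentile of both WT lists.

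The next by rank were chromosome 19 at 48723301 to 48725325 (WT folds of 18.5 and 18.8) and chromosome 8 at 8451786 to 8452814 (18.4 and 18.7). Chromosome 5 at 35966870 to 35968513, chromosome 10 at 85117967 to 85119432 and chromosome 13 at 112314556 to 112316574 complete the 10 strongest. None of the 10 lay within 10 kb of a region of all 6 lists, while 5 had a peak of some mutated list within 10 kb. They were 1029 to 2276 bp wide, and 9 of the 10 had another WT-only region as a direct neighbour among the regions of both WT lists.

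Such heights were rare, and most WT-only regions were weak. In WT replicate 1 their folds had a median of 3.25 and reached 23.3, and in WT replicate 2 the median was 3.19 and the highest 22.7. The lower WT percentile had a median of 25.2, with quartiles of 12.3 and 41.5. Only 1984 WT-only regions (15.3%) stood at or above the 50th percentile, against 84.3% of the 47767 regions of all 6 lists, which are called shared regions here. At or above the 75th percentile these were 262 WT-only regions (2.01%), against 50.05% of shared regions. Among the regions of both WT lists in the lowest 5 percentile points 48.9% were WT-only and 6.83% shared. In the highest 5 points 0.102% were WT-only and 99.4% shared.

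**Figure D1:**
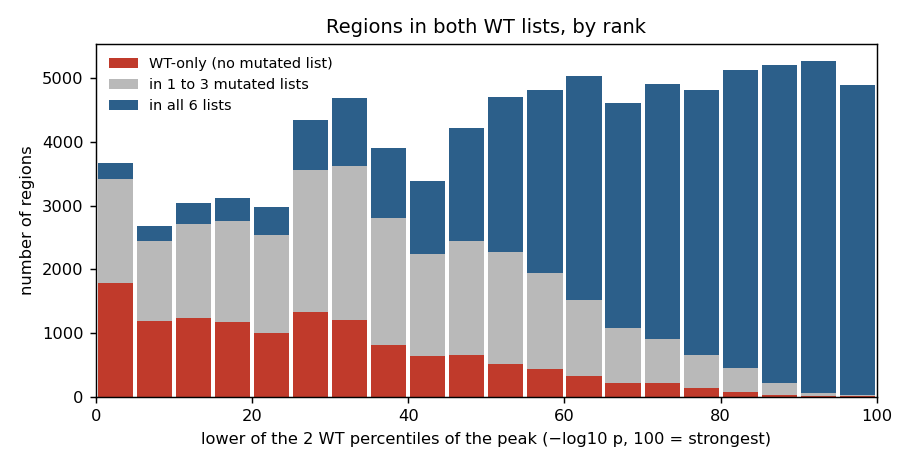
Number of regions present in both WT lists (y axis) by the lower of their 2 WT percentiles (x axis, bins of 5 points, 100 is the strongest), split into WT-only regions, regions with a peak in 1 to 3 of the 4 mutated lists, and regions of all 6 lists. WT-only regions fill 48.9% of the weakest bin and 0.102% of the strongest.

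The heights of WT-only regions were alike in the WT libraries. Across the 13003 regions Pearson's r of the log2 fold between the WT replicates was 0.863 and Spearman's rho of the fold 0.699. Both lists come from the same line, and a region had to pass the peak threshold in each. The strongest positions in both replicates lay a median of 48 bp apart, against 53 bp in shared regions weighted to the same ranks. Nearly all WT-only regions, 12663, consisted of 1 peak in each WT list.

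In fold and width the regions just outside the rule were close to those just inside, while their distances differed. Regions in both WT lists and exactly 1 mutated list numbered 6135, with a median mean WT fold of 3.27 and a median width of 442 bp, against 3.22 and 398 bp for WT-only regions just inside. Their median distance to a shared region was 5.25 kb, against 9.87 kb for WT-only regions, and it was 7.68 kb for regions in both WT lists and 2 mutated lists. In the mutated library that had the peak, its median fold was 3.02 in CBE_1 replicate 1, 2.81 in CBE_1 replicate 2, 2.82 in CBE_2 replicate 1 and 2.79 in CBE_2 replicate 2. These peaks had median percentiles between 14.1 and 16.6 of their own list, so they were mostly weak. A peak in 1 WT list alone was found for 22290 regions, with a median fold of 2.70 and a median width of 242 bp. Absence from a list therefore means no peak past the authors' threshold, and does not show closed chromatin.

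WT-only regions were narrow. Their width had a median of 398 bp (quartiles 325 and 520 bp, highest 3223 bp), against 1053 bp for all shared regions and 641 bp for shared regions weighted to the ranks of the WT-only regions. A merged region grows with the number of lists that contribute, so shared regions are wider by construction. The peaks of the WT lists alone had median widths of 333 bp in WT-only regions and 376 bp in shared regions of the same ranks. Between the 75th and 100th percentile the medians were 910 bp in WT-only regions and 1460.5 bp in shared regions, but the WT-only regions there were the weaker ones of that range. In the bin from the 70th to the 75th percentile the WT peaks had medians of 700.5 bp in WT-only and 690.5 bp in shared regions. Between the 60th and 70th percentile they were also no narrower in WT-only regions, so the narrower WT peaks were not found at all ranks.

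The widest WT-only regions were strong as well, with 1 exception. The first, on chromosome 4 at 150525413 to 150528635 (3223 bp), had no peak in the mutated lists, against WT folds of 15.3 and 15.3. Chromosome 3 at 143674551 to 143677233 had WT folds of 12.3 and 11.4, chromosome 5 at 38396647 to 38399292 had 13.1 and 11.9, and chromosome 3 at 98402756 to 98405371 had 14.0 and 15.1. The fifth, on chromosome 11 at 44837858 to 44840444, was wide (2587 bp) at lower folds of 5.73 and 6.59. In all, 430 WT-only regions (3.31%) were wider than 1000 bp, against 52.6% of shared regions.

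WT-only regions lay farther from the shared regions than shared regions lay from one another. The median distance, edge to edge, from a WT-only region to the nearest shared region was 9.87 kb (quartiles 2.29 and 43.4 kb). For shared regions weighted to the same ranks the median to another shared region was 3.06 kb (quartiles 0.678 and 11.04 kb). More than 100 kb away were 15.7% of WT-only regions and 2.73% of shared regions of the same ranks. The distance grew with the rank of WT-only regions, with medians of 6.25, 12.4, 20.2 and 35.4 kb in bins of 25 percentile points from the lowest to the highest. For shared regions the medians in the same bins were 2.65, 3.52, 4.36 and 3.78 kb. Near sites were common too, with 2014 WT-only regions (15.5%) within 1 kb of a shared region and 3508 (27.0%) within 1 kb of a peak of some mutated list.

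**Figure D2:**
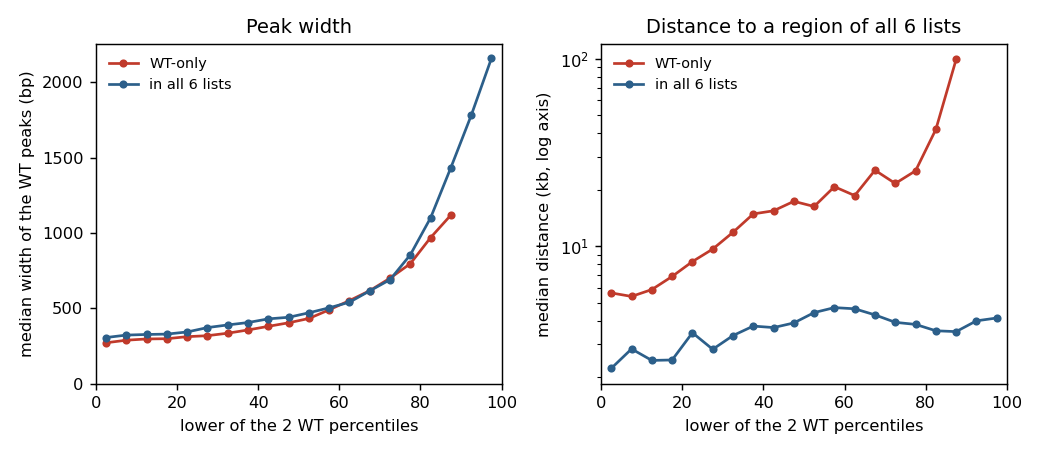
Median width of the peaks in the WT lists (left, bp) and median distance to the nearest other region of all 6 lists (right, kb, log axis), for WT-only regions and regions of all 6 lists, by the lower WT percentile; bins with fewer than 20 regions are left out. The widths of both classes are larger at higher ranks, and the distance of WT-only regions exceeds that of shared regions in every bin shown.

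The most isolated WT-only regions lay megabases from any shared region. The first was on chromosome 6 at 62167060 to 62167415, 2719 kb away, with WT folds of 3.35 and 3.74. On chromosome X, 62701863 to 62702650 was 2594 kb from a shared region and 1390 kb from any peak of a mutated list, with WT folds of 6.28 and 6.81. Next came chromosome 3 at 46755345 to 46755735 and at 46575735 to 46576010, and chromosome 4 at 80109560 to 80109865, 2464, 2285 and 2291 kb away. Peaks of a mutated list were nearer to these, at 548.0, 727.8 and 53.4 kb, and at 583.4 kb from the chromosome 6 region. In all, 122 WT-only regions were more than 1 Mb from a shared region, and 656 more than 100 kb from any mutated peak.

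WT-only regions followed one another along the chromosomes. Among the 85421 regions of both WT lists, 15.2% were WT-only, and after a WT-only region the next one was WT-only in 3782 of 13001 cases (29.1%, Clopper-Pearson interval 28.3 to 29.9, counting error only). After shared regions of the same ranks it was WT-only in 6.86%. The rank of the following region alone would give 16.6%, and its chromosome and rank together 17.8%. At the 10th step along the chromosome the shares were 21.6% after WT-only and 12.1% after shared regions, and at the 200th step 16.8% and 14.8%. Without chromosomes 10, 18 and 19 the first step gave 26.9% and 6.55%.

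Strong WT-only regions were followed by another more often than weak ones, and the share after shared regions rose with rank as well. Below the 25th percentile 24.7% were followed by another WT-only region, and 29.6%, 39.5% and 58.4% in the higher bins of 25 points. Shared regions of the same bins were followed by a WT-only region in 5.98%, 7.40%, 11.2% and 12.03% of cases. Regions of both WT and both CBE_2 lists that lacked both CBE_1 lists followed a WT-only region in 10.4% of cases. After shared regions of the same ranks they followed in 6.22%. For the reverse pattern, missing from CBE_2 alone, the shares were 1.18% and 0.948%. Among all regions of both WT lists these patterns made up 8.86% and 1.14%, near the shares after WT-only regions. Shared regions followed a WT-only region in 39.9% of cases, against 70.1% after shared regions of the same ranks. They made up 55.9% of all regions of both WT lists.

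**Figure D3:**
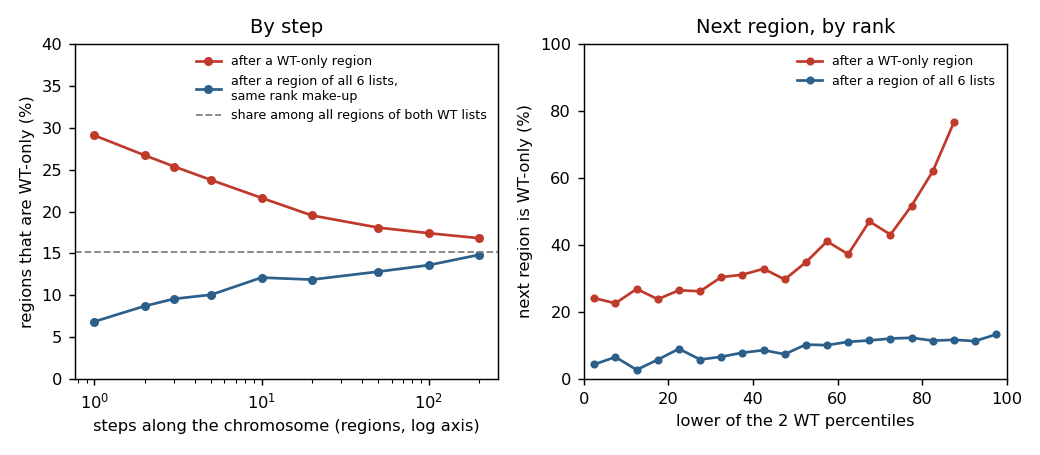
Left, share of regions of both WT lists that are WT-only (y axis, %) at a given number of steps along the chromosome (log axis) after a WT-only region or after a region of all 6 lists weighted to the same ranks; the dashed line is the share among all such regions, 15.2%. Right, the same for the next region, by the lower WT percentile (bins with fewer than 20 regions left out). After WT-only regions it is 24.1% in the weakest bin and 76.7% in the highest bin shown for them, which holds 30 regions. After shared regions it is at most 13.4%.

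Some WT-only regions followed one another in long unbroken runs. A run is a set of WT-only regions with no other region of both WT lists between them, so its members lack mutated peaks by definition, and mutated peaks in its span can only lie between them. Of the WT-only regions, 6978 stood alone, 1087 (8.36%) belonged to 168 runs of at least 5, and 186 to 15 runs of at least 10. In 10 of these 15 runs the whole span held no peak of any mutated list, and in the others at most 3 peaks over the 4 lists. Regions in runs of at least 5 had a median lower percentile of 34.9 and lay a median of 101.5 kb from a shared region. For regions standing alone the medians were 21.1 and 5.56 kb. A shared region is in both WT lists, so none can lie inside a run. The larger distance in long runs is therefore partly fixed by their definition.

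The longest run, on chromosome 12 at 108669664 to 109354663, held 19 WT-only regions over 685 kb. Its span held 1 and 0 peaks in the CBE_1 lists, none in the CBE_2 lists, and 28 and 21 in the WT lists. Its strongest member, at 108705949 to 108706682, had WT folds of 15.04 and 13.8, while the medians of the run were 3.90 and 3.85. The regions on either side of the run were open in both CBE_2 lists and in no CBE_1 list. That on the centromeric side, at 108640868 to 108641962, had folds of 3.92 and 3.54 in CBE_2, against 13.6 and 15.6 in WT. On the other side, at 109359496 to 109359854, the folds were closer, with 4.05 and 4.08 in CBE_2 against 4.76 and 4.61 in WT.

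On chromosome 3, from 22749426 to 25574212, 16 WT-only regions spread over 2825 kb without a peak in any mutated list, against 20 and 17 peaks in WT. One gap between them measured 1961 kb. On chromosome 19, from 48098265 to 49570752, 15 WT-only regions over 1472 kb had no mutated peak, against 26 and 22 peaks in WT, and 1 of them is the region with folds of 18.5 and 18.8 named above. On chromosome 14, from 114649316 to 114892913, 14 regions over 243.6 kb had no peak in CBE_1, 2 and 1 in CBE_2, and 19 and 20 in WT.

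The fifth run, on chromosome 7 at 123882357 to 124267379, was the strongest of these, with 14 regions over 385 kb and median folds of 5.30 and 5.66 in WT. It had no mutated peak, against 16 and 14 peaks in WT. The region before it, at 123858003 to 123860171, had no peak in CBE_1, folds of 3.68 and 4.72 in CBE_2, and folds of 18.4 and 18.9 in WT. The region after it, at 124271164 to 124271710, had folds of 8.14 and 5.52 in CBE_1, 3.22 in CBE_2 replicate 2 and no peak in CBE_2 replicate 1, against 12.7 and 13.8 in WT.

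A pair of neighbouring runs on chromosome 10, singled out after their values were seen, formed a similar stretch. From 68136153 to 68441233, over 305.1 kb, 23 of 24 regions of both WT lists were WT-only. The CBE_1 lists had no peak there, the CBE_2 lists 1 each, and the WT lists 28 and 30. The region between the runs, at 68257342 to 68259681, was the one with CBE_2 peaks, with folds of 4.66 and 4.08, against 22.4 and 22.0 in WT. The 23 WT-only regions had folds from 2.60 to 15.6 in WT replicate 1 and from 2.42 to 16.04 in WT replicate 2.

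Where shared regions were allowed in between, WT-only regions gathered in dense stretches of weak peaks. With gaps of at most 50 kb, 4389 WT-only regions (33.8%) were alone and 1385 (10.7%) fell into 90 clusters of at least 10, of which 19 lay on chromosome 19, 16 each on chromosomes 10 and 18, and 10 on chromosome 5. The largest, with 41 WT-only of 96 regions of both WT lists, lay on chromosome 18 at 88927003 to 89423137. It held 43 and 68 peaks in CBE_1, 24 and 27 in CBE_2, and 146 and 132 in WT, and the folds of its members stayed between 2.31 and 4.65. The second, on chromosome 18 at 84816678 to 85168001, held 40 WT-only of 87 regions.

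The third, on chromosome 19 at 8609214 to 9149888, held 37 of 94, with 58 and 59 peaks in CBE_1, 65 and 62 in CBE_2, and 117 and 120 in WT. The fourth, on chromosome 19 at 53298150 to 53905379, held 35 of 102. The fifth, on chromosome 5 at 3347054 to 3591591, held 30 of 64, with 18 and 22 peaks in CBE_1, 29 and 35 in CBE_2, and 94 and 75 in WT. The members of these 5 clusters had median lower WT percentiles of 16.8 to 21.1. Among all regions of both WT lists, 37.5% were WT-only between the 15th and 20th percentile, and 33.8% between the 20th and 25th. The count that the ranks of all regions in a cluster would give was not computed. In 1-Mb windows, the highest counts were 57 WT-only regions on chromosome 18 at 84000001 to 85000000, 48 on chromosome 19 at 53000001 to 54000000, and 47 on chromosome 18 at 88000001 to 89000000. They were followed by 44 at 41000001 to 42000000 and 43 at 10000001 to 11000000, both on chromosome 19. In the same order, these windows held 140, 150, 95, 147 and 141 regions of both WT lists. At the genome-wide WT-only share of each rank bin, those regions would give 36.0, 29.8, 29.5, 24.2 and 19.4 WT-only regions.

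WT-only regions were nonetheless spread over all chromosomes. Of 2464 windows of 1 Mb with a region in both WT lists, 2178 (88.4%) held at least 1, with a median of 4. To set chromosomes side by side, the genome-wide share of WT-only regions in each rank bin was applied to the regions of both WT lists on a chromosome. By this count chromosome 19 stood out, with 1016 WT-only regions against 515.4 by rank, a ratio of 1.97. The next were chromosome 10 with 1176 against 924.5 (1.27) and chromosome 13 with 664 against 553.7 (1.20). Chromosome 18 had 906 against 804.6 (1.13), and it held 5.68% and 5.97% of all peaks in CBE_1, 3.12% and 3.12% in CBE_2, and 5.37% and 5.20% in WT. The lowest were chromosome 11 with 405 against 615.5 (0.658) and chromosome 17 with 425 against 541.9 (0.784).

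The excess on chromosome 19 ran along its whole length. In 52 of its 53 windows of 1 Mb with at least 10 regions of both WT lists, the WT-only count exceeded the count by rank, against 21 of 94 windows on chromosome 11. With the chromosome in 10 equal stretches, the ratio lay between 1.67 and 2.43. It was 2.00 below the 50th percentile and 1.77 at or above it. The chromosome also held fewer of all peaks in the mutated lists, with 2.79% and 2.70% in CBE_1 and 2.47% in both CBE_2 lists, against 3.79% and 3.75% in WT. The part of this chromosome-wide peak number in the count was not tested. Peak lists hold no read counts, so the number of copies of chromosome 19 in each line, which could bear on the ratio, was not tested either. Over all chromosomes the ratio was 1.22 in the first of 10 equal stretches, at the centromere, and 0.872 in the last.

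**Figure D4:**
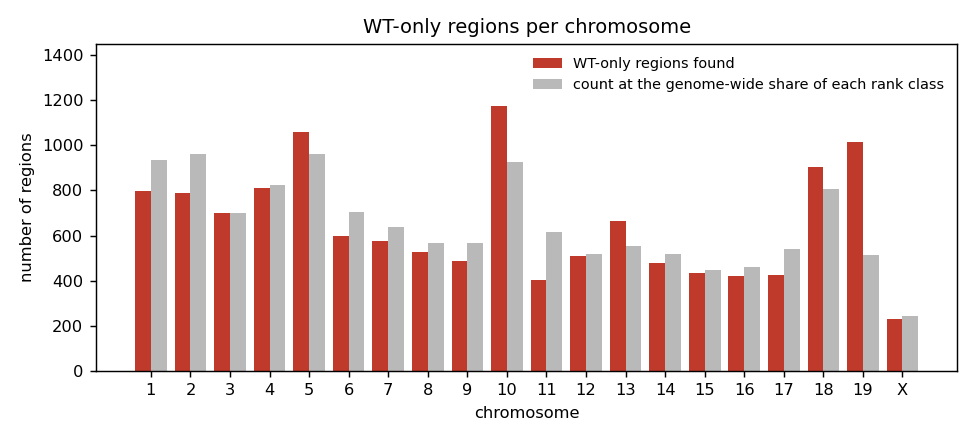
WT-only regions found on each chromosome, beside the count that the genome-wide share of WT-only regions in each rank bin would give. Chromosome 19 has 1016 against 515.4, and chromosome 11 has 405 against 615.5.

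Shared regions close to WT-only regions ranked lower in the mutated libraries than in the WT libraries. For this, the fold of the 47767 shared regions was turned into a percentile among them in each library. This is the contrast the rule used, so no test was made. Within 1 kb of a WT-only region, the 2040 shared regions had median percentiles of 55.1 and 55.2 in CBE_1, 54.9 and 54.9 in CBE_2, and 66.1 and 65.8 in WT. All 4 mutated libraries lay below both WT libraries for 45.8% of them, against 20.1% of all shared regions. Of the shared regions within 10 kb, 34.5% of 9383 ranked lower in all 4 mutated libraries (Clopper-Pearson interval 33.6 to 35.5, counting error only) and 10.7% ranked higher, against 20.3% of all shared regions. The median percentiles within 10 kb were 50.7 and 50.1 in CBE_1, 50.2 and 50.6 in CBE_2, and 57.8 and 57.4 in WT. Over all shared regions the medians of the 6 libraries were 49.6 to 50.3. Within 10 kb the mutated medians thus stood near these values, and the WT medians above them.

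The pattern was present in both mutated lines. Within 10 kb, both CBE_1 libraries ranked below both WT libraries in 48.1% of shared regions and both CBE_2 libraries in 50.3%, against 33.6% and 33.2% of all shared regions. With distance the gap narrowed. Between 20 and 50 kb the medians were 50.7 and 50.1 in CBE_1, 50.2 and 50.6 in CBE_2, and 50.3 and 50.5 in WT. Percentiles within a library balance over all regions, and beyond 100 kb the order was reversed, with 48.5 and 49.3 in CBE_1, 49.5 and 49.9 in CBE_2, and 44.3 and 44.5 in WT.

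**Figure D5:**
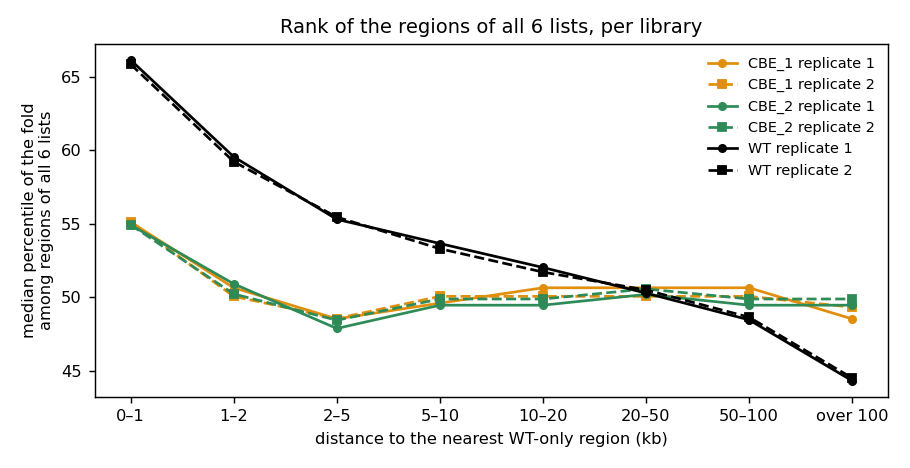
Median percentile of the fold among the 47767 regions of all 6 lists (y axis, 1 line per library) by the distance to the nearest WT-only region (x axis, kb). Within 1 kb the 4 mutated libraries lie at 54.9 to 55.2 and the WT libraries at 65.8 and 66.1.

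Shared regions near WT-only regions were stronger in WT, so the comparison was repeated within bins of 25 points of the mean WT percentile. In the highest bin 40.1% of shared regions within 10 kb of a WT-only region ranked lower in all 4 mutated libraries, against 20.9% of those farther away. In the bins below, the shares were 44.8% against 23.3%, 32.3% against 18.1%, and, in the lowest, 12.01% against 5.38%. In the lowest bin the opposite order, with all 4 mutated libraries above both WT libraries, was more common near WT-only regions (17.96%) than the lower one, and farther away it held for 30.5%. In the other bins, from the highest down, 7.59%, 10.07% and 10.2% of the near ones ranked higher, against 16.5%, 22.5% and 20.1% farther away. Without bins of WT rank, the share ranking lower in all 4 mutated libraries rose with the number of WT-only regions within 50 kb. It was 13.7% with none, 19.98% with 1, 30.2% with 2 to 4, 49.4% with 5 to 9 and 52.3% with 10 or more, the last on 132 shared regions. The median WT percentiles of these shared regions rose as well, from 45.8 and 45.9 with none to 65.3 and 64.3 with 10 or more. The part of WT rank in this rise was not tested.

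The IgH and Igk windows held fewer WT-only regions than the ranks of their regions would give. In these approximate windows, the IgH locus and its flanks on chromosome 12 held 21, against 42.1 by rank, and the Igk light chain locus and its flanks on chromosome 6 held 11, against 24.3. At IgH, 2 stood next to each other with comparatively high folds, and they are singled out here by these values. The region at 114723239 to 114724090 had no mutated peak, against WT folds of 7.14 and 6.48, and the region at 114725829 to 114726376 had none, against 8.01 and 8.13. They lay 37.1 and 36.3 kb from the nearest shared region but only 2.155 and 4.745 kb from a peak of a mutated list, and 539 and 266 WT-only regions of the genome ranked higher. Whether either is an element of IGCR1 was not tested, as no annotation of mm9 was used.

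The other 19 in the IgH window had WT folds from 2.27 to 7.80, the highest in the region at 114152415 to 114153607. With a lower WT percentile of 70.9, that region ranked above the one at 114723239 to 114724090 (68.2). At Igk, 3 followed one another at 70669687 to 70670018, 70670300 to 70670929 and 70672383 to 70672930. The middle one had WT folds of 7.14 and 6.15, and the last 4.44 and 4.94. The other 8 and the first of these 3 had lower WT percentiles of at most 47.3.

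The same measures were taken for regions found only in another line. There were 998 CBE_1-only regions (0.667% of all merged regions) and 4701 CBE_2-only regions (3.14%). They made up 1.80% and 6.26% of the regions in both lists of their line, against 15.2% for WT-only. Their median widths were 392 bp in CBE_1, 391 bp in CBE_2 and 398 bp in WT. The median distance to a shared region was 4.40 kb for CBE_1-only, 13.9 kb for CBE_2-only and 9.87 kb for WT-only regions. Shared regions of the same ranks in those lists gave 3.97, 2.83 and 3.06 kb. A region of the same kind followed in 8.93% of CBE_1-only, 17.3% of CBE_2-only and 29.1% of WT-only regions, against 1.38%, 3.62% and 6.86% after shared regions of the same ranks. The more regions a kind has, the more often 1 follows another, so these shares are set beside their own shared regions. The highest ratio of a chromosome was on X for CBE_1-only (2.26) and CBE_2-only (1.38) regions, against 19 for WT-only regions.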

How the data were processed

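ATAC-seq peak lists of 6 libraries were used, 2 each of CBE_1, CBE_2 and WT. Per the submitters' processing notes, reads were handled with Trimmomatic, Bowtie2, SAMtools and Picard on mm9, no version being stated. The peak caller, its settings and any transposase shift were not given in the sources used here. Each library has its own list. The columns used, as deposited by the authors, are a score, the fold (a ratio over background), p and q as −log10 values, and the summit position. These rank peaks within a list only. Read depth is unknown.

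Peaks overlapping by 1 bp or more were merged (Python 3.11.15, pandas 2.3.3, scipy 1.17.1). Regions were sorted into 20 bins of the lower WT percentile of −log10 p, and shared regions were weighted to the ranks of the WT-only regions. Replicates are numbered in accession order. Merging, distances and neighbour shares were tested on simulated lists. Intervals are 95% and cover counting error only. Members and measures were chosen with earlier results of these data known. No test between lines was made, since presence and absence chose the regions. Named regions are the 10 of highest rank, the 5 widest, the 5 farthest from a shared region, the 5 largest clusters, runs and 1-Mb windows, and those of the IgH and Igk windows. Gene names and sequences are not given, since the tables used here are of another build, GRCm38.p6.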

Additional observations from a re-analysis of the deposited data

How the results depend on the processing

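The count of 13003 WT-only regions depends on the lists. Leaving out 1 library gave 13576 to 27356, the highest without WT replicate 2 and 22812 without WT replicate 1. It was 7660 with the better 50% of each list, 6445 with lists of the same length and 1984 with strong regions (better 50% of both WT lists, absent from the full mutated lists). Under these 3 settings and with peaks up to 200 bp apart merged, the median width was 610, 490, 615 and 403 bp, and the median distance to a shared region 18.1, 16.1, 40.9 and 11.1 kb. With strong regions, only regions in the better 50% of all 6 lists counted as shared, so the 40.9 kb was measured to fewer of them. To all shared regions, the medians were 20.2 kb between the 50th and 75th percentile and 35.4 kb above it. The share of WT-only regions followed by another was 26.0% with lists of the same length and 19.8% with strong regions. After shared regions of the same ranks it was 5.83% and 1.70%. With strong regions, only neighbours in the better 50% of both WT lists were counted. The chromosome 19 ratio was 1.79, 1.83 and 1.77 under the first 3 settings. The share of near shared regions that ranked lower was 31.4%, 37.7% and 43.2%. Without chromosomes 10, 18 and 19, chosen after seeing the data, the values were 395 bp, 10.6 kb, 26.9% and 32.8%. The last stands against 19.6% of all shared regions.

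Leaving out 1 library gave widths of 278 to 402 bp, distances of 7.33 to 9.23 kb, followed shares of 29.6% to 37.2% and chromosome 19 ratios of 1.65 to 1.96. After shared regions of the same ranks a WT-only region followed in 8.29% to 12.98% of cases, against 6.86% with all 6 libraries. Lower-ranking shares were 35.8% to 37.5%, against 22.6% to 26.4% of all shared regions. Fewer libraries must agree in these settings, so the shares do not compare directly with those of all 6 libraries. In all 13 alternatives WT-only regions lay farther from shared regions (2.47 to 5.76 times) than shared regions of the same ranks. WT-only regions were also followed more often by a WT-only region (2.87 to 11.6 times). The highest value of both ranges came from strong regions, where the shared regions were a smaller set. Ranking by fold changed no value, since fold and −log10 p order the peaks of each list alike. Requiring an overlap of 0.5 of the shorter peak moved no value beyond its interval. Without 1 WT library the rule asks for a peak in only 1 WT list, so it is looser by definition. Otherwise the cause of these shifts was not tested. No paired analysis was possible because the labels give no replicate numbers and no test was made. Without read counts, depth cannot be compared.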
